A study of Mus musculus with 8 samples.

Results

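The miR-1 and miR-206 hairpins are a small family of striated muscle microRNAs, and 6 of the 764 hairpin entries listed over the 8 heart tables belong to it. They are the entries, of any species, named mir-206, mir-1b, mir-1a with a copy number or mir-1 with a copy number. The mouse entries are mir-1a-1, mir-1a-2, mir-1b and mir-206, the human entries are mir-1-1 and mir-1-2, and no rat entry met the rule. Of the 6, 5 held reads on a mature arm and mir-1-2 held none. A rat entry named mir-1 without a copy number lies outside the rule; it held 307 to 455 reads on its 3′ arm per library.

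The libraries came from whole hearts of wild-type C57Bl6/J mice, 4 female and 4 male, aged 4 to 6 weeks and called adult in the labels. Each heart gave its own small RNA library, enriched for RNA under 200 nt, and the labels list no treatment. The tables hold read counts per hairpin entry, separately for the mature 5′ arm, the mature 3′ arm and whatever fell elsewhere on the hairpin. Total counts ran from 29900500 to 38894987 per library, and the replicates within a sex are separate animals.

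A microRNA is cut from a hairpin, and 1 strand of the hairpin guides a silencing complex to messages that match its seed, bases 2 to 8 of the mature RNA. miR-1a-3p, made from the loci of mir-1a-1 and mir-1a-2, is a main microRNA of heart and skeletal muscle; it is known to act on genes of cardiomyocyte growth, conduction and calcium handling. miR-206-3p shares its seed and is known mainly from skeletal muscle and its precursor cells. Each of these genes lies beside a gene of the miR-133 family, which is transcribed with it. mir-1b is annotated on the strand opposite mir-1a-2, so the mature arms of the pair are largely complementary to each other.

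The sequences of miR-206 and of the minor arm of mir-1a-1 are shown because the seed defines the family and because neither 5′ arm drew a read. They are from the RefSeq miRNA table (GRCm38.p6), printed 5′ to 3′ with the seed in capitals:
miR-206-3p: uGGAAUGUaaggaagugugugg
miR-206-5p: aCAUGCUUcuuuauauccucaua
miR-1a-1-5p: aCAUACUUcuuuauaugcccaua
The 5′ arms of mir-1a-1 and mir-206 were alike at 20 of 23 bases. Counted from 1 at the 5′ end, with the base of miR-1a-1-5p first, they differed at A5G, G17C and C19U, of which the first lies in the seed.

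The hairpin of miR-206 is shown because most of its reads were counted outside both mature arms, which are in capitals (5′ arm first):
Mir206: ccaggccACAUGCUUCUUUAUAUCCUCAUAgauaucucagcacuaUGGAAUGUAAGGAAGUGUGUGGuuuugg
In GRCm38, Mir206 lies on chromosome 1 (20679010 to 20679082, plus strand) in an exon of the lincRNA Gm28653. Mir133b follows it after 3686 bases in the same lincRNA.

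The mir-1 genes lie elsewhere. Mir1a-1 is on chromosome 2 (180389048 to 180389124, plus strand), outside other annotated genes and 9254 bases before Mir133a-2. Mir1a-2 is on chromosome 18 (10785481 to 10785552, minus strand), within an intron of Mir133a-1hg and opposite an intron of the ubiquitin ligase gene Mib1, with Mir133a-1 after 2504 bases. Mir1b (10785446 to 10785567, plus strand) covers all 72 bases of Mir1a-2 from the other strand.

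Which entry held the reads was examined first. Most mature reads of the family stood under the 5′ arm of mir-1b, the entry opposite mir-1a-2. In female replicates 1 to 4 this arm held 9600261, 11379537, 6915092 and 10691575 reads. In male replicates 1 to 4 it held 10717862, 8580297, 8552140 and 9509075 reads. Female replicate 3 was lowest and female replicate 2 highest, and the ranges of the sexes overlapped. The arm was the most abundant of all features, at 284947 ± 68816 CPM in females and 301817 ± 36128 CPM in males (mean ± SD, n = 4; CPM, counts scaled by library size and TMM factor). In whole hearts, fewer cells of a type and less RNA per cell cannot be told apart. Its 3′ arm held 0 reads in every library. All reads of the mir-1b 5′ arm were counted as unique to that entry. Whether counting used strand is not given in the sources used here. So the strand these reads came from, that of mir-1b or of mir-1a-2, cannot be told.

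The 3′ arm of the human entry mir-1-1 came next, with 729086, 806761, 722229 and 796769 reads in female replicates 1 to 4. It held 770671, 714505, 748094 and 789187 reads in male replicates 1 to 4. These values lay close together, with the highest library 1.17 times the lowest as a share of mature counts, against 1.44 times for mir-1b. Its 5′ arm held 13 reads in male replicate 1, 11 in female replicate 4 and 0 elsewhere. All mature reads of mir-1-1 were counted as unique to that entry.

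The 3′ arms of mir-1a-1 and mir-1a-2 held far fewer reads and almost the same number. The sequences of the mir-1-1 and mir-1a 3′ arms were not compared here. So the counts of the mir-1a entries need not hold all reads of miR-1a-3p. For mir-1a-2 the counts were 16975, 22489, 12150 and 20652 in female replicates 1 to 4 and 14614, 15692, 16594 and 15197 in male replicates 1 to 4. mir-1a-1 differed from it by at most 14 reads in any library. Neither 3′ arm had a read unique to 1 entry. The sources used here do not state whether shared reads were split or counted at each entry; if counted at each, their sum is too high. The 5′ arm of mir-1a-2 held 11 reads in female replicate 3 and 0 elsewhere, and that of mir-1a-1 held 0 throughout.

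Of the entries with mature reads, the scarcest was mir-206. Its 3′ arm, the strand with the miR-1 seed shown above, held 44, 87, 36 and 75 reads in female replicates 1 to 4 and 51, 35, 125 and 29 in male replicates 1 to 4. Male replicate 3 stood highest and male replicate 4 lowest, so the male range enclosed the female range. Per 1000000 reads of the mir-1b 5′ arm there were 3.05 to 14.6 reads of the mir-206 3′ arm. All mature reads of mir-206 were counted as unique to the entry, but none was an exact match. Whether some came from miR-1, which has the same seed, was not tested.

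**Figure D1:**
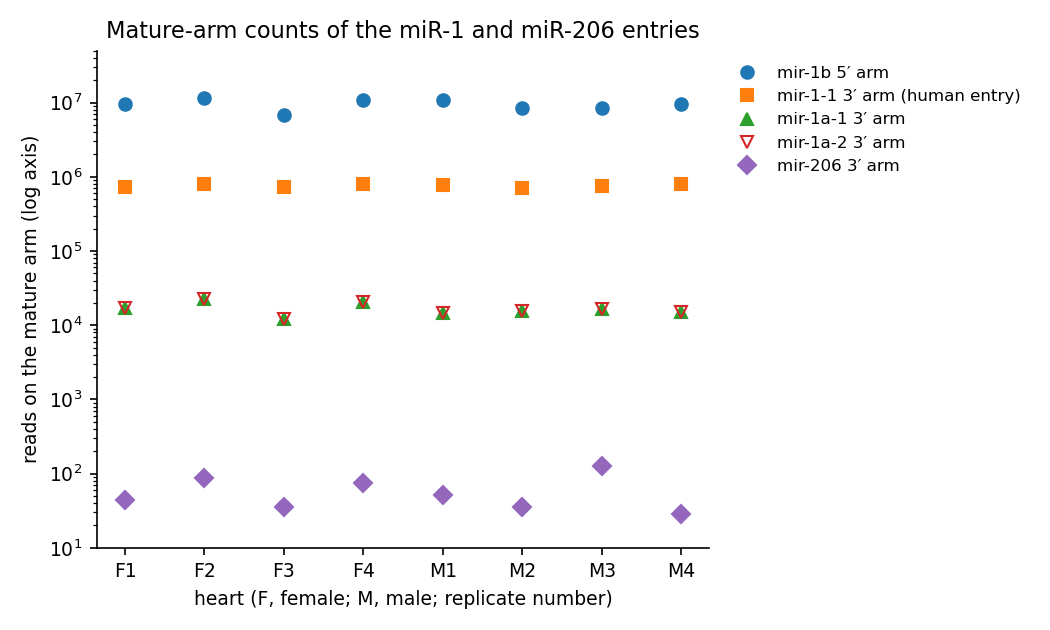
Reads on the mature arm (log axis) for the 5 member entries with mature reads, by heart. The mir-1b 5′ arm lies between 6915092 and 11379537 reads in every heart, the human mir-1-1 3′ arm between 714505 and 806761, the 2 mir-1a entries on top of each other, and mir-206 between 29 and 125.

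The mir-1 entries together held 31.6% ± 4.40 of all mature counts in females and 31.4% ± 2.10 in males (mean ± SD, n = 4). By library the share was 35.5%, 32.4%, 25.3% and 33.1% in female replicates 1 to 4 and 34.0%, 31.6%, 28.9% and 31.0% in male replicates 1 to 4. Both the highest and the lowest of the 8 values were female, and the groups overlapped. The difference, female minus male, was 0.180 points (two-sided exact permutation test over 70 arrangements, p = 0.971, adjusted p over the 5 shares 1.0). The smallest p this design allows is 0.0286. Without female replicate 3 the difference was 2.27 points and without female replicate 1 it was -1.14 points. mir-206 held 1.79 ± 0.527 counts per 1000000 mature counts in females and 1.86 ± 1.37 in males (mean ± SD, n = 4; exact permutation p = 1.0, adjusted p = 1.0). Without male replicate 3 the male mean was 1.19 per 1000000.

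How reads divided among the mir-1 entries was compared next. Of the reads on mir-1a-2 and mir-1b, the share of mir-1a-2 was 0.177%, 0.197%, 0.176% and 0.193% in female replicates 1 to 4. It was 0.136%, 0.183%, 0.194% and 0.160% in male replicates 1 to 4. The groups overlapped, with female replicate 2 above the highest male value, and the difference was 0.0175 points (exact permutation p = 0.343, adjusted p = 1.0). The split followed the arms: of the 3′ arm reads of the pair all were under mir-1a-2, and of the 5′ arm reads all but the 11 named above were under mir-1b. None of those 3′ arm reads was unique to mir-1a-2, so the share cannot be assigned to that locus alone. With unique counts only, the mean share of mir-1a-2 was 3.98e-05% in females and 0% in males.

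The human mir-1-1 entry held 7.49% ± 1.30 of mir-1 counts in females and 7.50% ± 0.567 in males (mean ± SD, n = 4; exact permutation p = 1.0, adjusted p = 1.0). Female replicate 3 had 9.43%, against 6.60% to 7.04% in the other female hearts and 6.69% to 8.02% in the male hearts. Without it the sexes differed by -0.655 points. That heart had the lowest count of mir-1b and a mir-1-1 count within the range of the others. Its TMM factor was also the highest, 1.24 against 0.89 to 1.03. The shares are of raw counts, so the factor does not enter them. Why this heart differed was not tested.

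**Figure D2:**
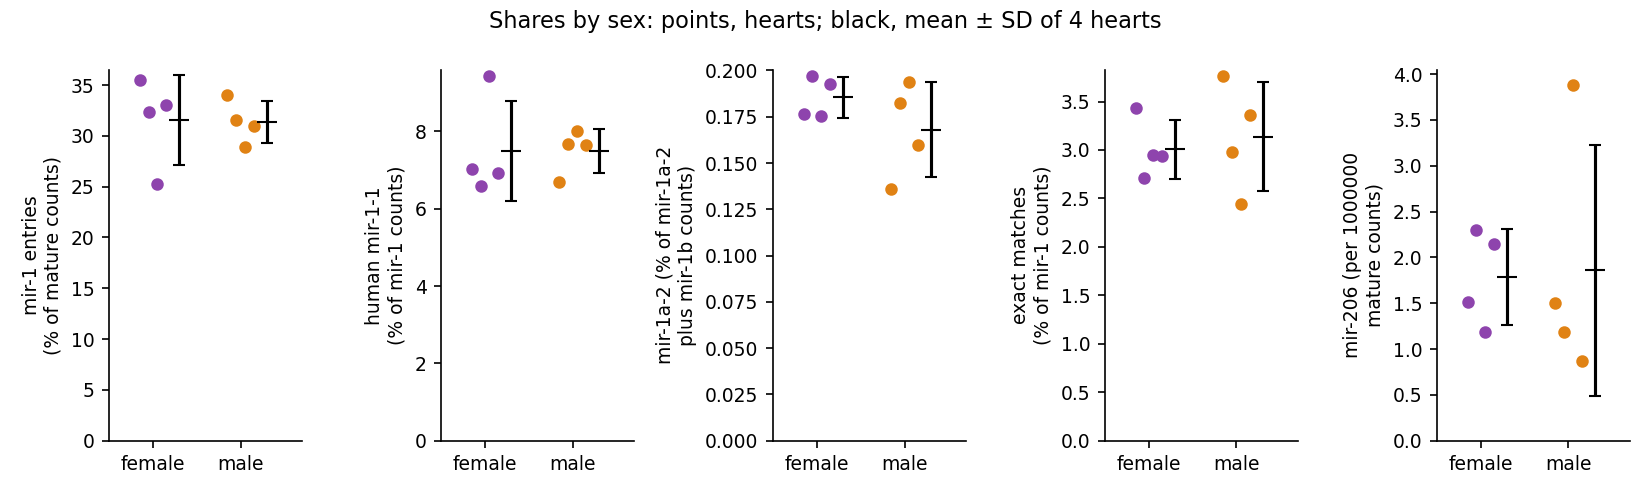
Shares of the family by sex, 1 point per heart with mean ± SD of 4 hearts. From left to right are mir-1 entries among mature counts, human mir-1-1 among mir-1 counts, mir-1a-2 among the counts of the opposite-strand pair, exact matches among mir-1 counts (all %), and mir-206 per 1000000 mature counts; the sexes overlap in all 5.

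Exact matches to a listed mature sequence were rare in the family. In the mir-1b 5′ arm they were 3.71%, 2.92%, 3.27% and 3.17% of reads in female replicates 1 to 4 and 4.04%, 3.24%, 2.67% and 3.65% in male replicates 1 to 4. Over the 8 libraries this arm had 2539476 exact reads of 75945839. The 3′ arm of mir-1-1 had 0 exact reads of 6077302, that of mir-1a-2 had 0 of 134363 and that of mir-206 had 0 of 482. Among 218 entry arms with at least 10000 reads over the 8 libraries, the median exact share was 25.9%. In that set 19 arms had 0 exact reads, 3 of them in this family, and 16 others had an exact share above 0 but below that of mir-1b. Over all mir-1 counts the exact share was 3.01% ± 0.305 in females and 3.14% ± 0.559 in males (mean ± SD, n = 4). The sexes differed by -0.129 points (exact permutation p = 0.714, adjusted p = 1.0).

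Each feature was then tested between the sexes in 1 fit over 562 miRNA features, with the reads of mir-1a-1 and mir-1a-2 summed as mir-1a. Of the 4 member features tested, 0 had an adjusted p under 0.05 in the quasi-likelihood test of edgeR, 0 had an unadjusted p under 0.05, and DESeq2 and limma-voom called 0 of them as well. Over all features edgeR called 1, or 0.178%, limma-voom 1 and DESeq2 3 of 560, or 0.536%. The edgeR call was miR-182-5p, named here after its value was seen, with a log2 fold change of 1.82 (SE 0.31, adjusted p = 0.0478). The edgeR count fell to 0 under each of the other scalings run, with the filter of 10 CPM, with deposited rows, with mouse entries, and with exact or unique counts. Leaving out 1 heart gave 0 calls for 7 of the 8 hearts and 2 calls without female replicate 3. At an unadjusted p under 0.05 there were 30 features, or 5.34%.

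The log2 fold change, female minus male, was -0.08 (SE 0.19, edgeR adjusted p = 0.968) for the mir-1b 5′ arm, and 0.0094 with library size alone as scaling. The 95% interval ran from -0.50 to 0.34. For the mir-1-1 3′ arm it was -0.12 (SE 0.16, interval -0.46 to 0.22, adjusted p = 0.894). The summed mir-1a 3′ arm had 1064 ± 277 CPM in females and 1002 ± 46.0 CPM in males (mean ± SD, n = 4) and a log2 fold change of 0.09 (SE 0.21, interval -0.38 to 0.55, adjusted p = 0.977). mir-206 had 1.76 ± 0.628 and 1.90 ± 1.32 CPM (SD, n = 4). Its log2 difference between the sexes was -0.11 (SE 0.48), with the widest interval of the 4, from -1.15 to 0.93 (adjusted p = 0.993). Without female replicate 3, which had the lowest mir-1b count, the log2 fold changes were 0.098 for mir-1b, -0.029 for mir-1-1, 0.29 for mir-1a and 0.12 for mir-206. Without male replicate 3 that of mir-206 was 0.49. Differences of these sizes were within the spread between hearts, and the intervals leave room for a difference of either sign. The 4 female and 4 male CPM values overlapped for all 4 member features; over all 562, 13 features, or 2.31%, did not overlap.

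The other muscle miRNAs gave a reference. These are miR-133, partner of miR-1 in its transcripts; miR-208a and miR-208b, from the cardiac myosin genes Myh6 and Myh7; and miR-499, from the myosin gene Myh7b. Of 10 features listed, 9 were tested and 0 passed (edgeR); 9 of 9 had a log2 fold change above 0, with a median of 0.24, against 285 of 562 and a median of 0.01 over all features. The 9 features are not independent, since both arms of miR-208a and several miR-499 entries are among them. With TMM and library sizes computed without the miR-1 and miR-206 entries, 8 of 9 were above 0 and the median was 0.16. With library size alone it was 0.38, where that of all features was 0.12. Of the members, 1 of 4 was above 0, or 2 of 4 with library size alone. The widest gap was that of miR-133b-3p, from the lincRNA that also holds Mir206, with 51.6 ± 29.9 CPM in females and 22.8 ± 6.50 CPM in males (mean ± SD, n = 4). On the log2 scale the sexes differed by 1.18 (SE 0.36; adjusted p = 0.515 in edgeR).

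Markers of the cell types a heart sample could hold were read beside these values. Of 16 listed, 15 had a level, 0 of them were at 0 in any heart, and 0 passed between the sexes in edgeR. The 3 heart muscle markers summed to 3668 to 8562 CPM in females and 2790 to 5764 CPM in males, with miR-208a-3p at 143 to 524 CPM and miR-208b-3p at 6.61 to 16.2 CPM over the 8 hearts. Of the 2 skeletal muscle markers, miR-206-3p lay at 0.961 to 3.84 CPM and miR-133b-3p at 15.4 to 95.5 CPM. The level of miR-206-3p rests on reads without an exact match. The 2 erythroid markers, miR-144 and miR-451a, had log2 fold changes below 0, opposite to the other muscle miRNAs. So did the endothelial marker miR-126a-3p, 2 of the 3 leukocyte markers, the liver marker and miR-206-3p. The smooth muscle markers, the neural marker miR-9-5p and the leukocyte marker miR-150-5p lay above 0. The summed level of the erythroid markers reached 205 CPM in females and 1085 CPM in males. miR-144-3p lay at 2.32 to 44.1 CPM in females and 9.48 to 185 CPM in males, and miR-451a-5p at 44.3 to 161 CPM in females and 124 to 900.5 CPM in males. For miR-451a the log2 fold change was -2.13 (SE 0.60; adjusted p = 0.515 in edgeR), and the groups overlapped. The 3 leukocyte markers summed to 234 to 274 CPM in females and 212 to 298 CPM in males. The part of blood or other cells in the values of the members and of the muscle miRNAs was not tested. The liver marker miR-122-5p lay at 1.05 to 6.80 CPM.

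**Figure D3:**
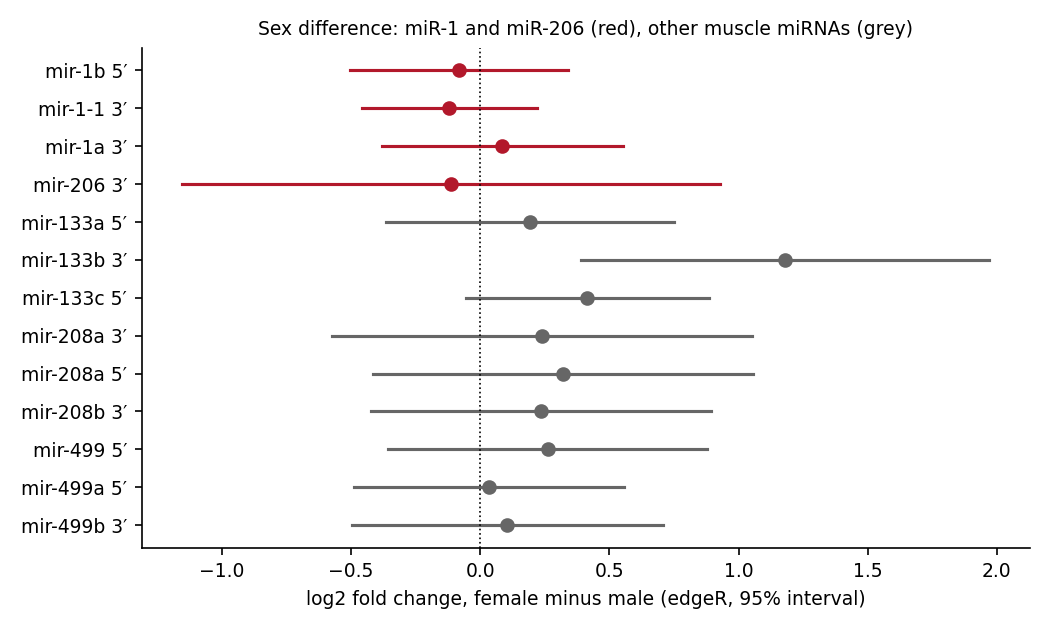
Log2 fold change, female minus male, from edgeR with its 95% interval for the 4 member features (red) and 9 other muscle features (grey). All 4 red intervals span 0, and mir-206 has the widest of them, from -1.15 to 0.93.

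Spread between hearts of a sex differed among the members. As an SD of log2 CPM within sexes (pseudocount 0.5 CPM) it was 0.14 for the mir-1-1 3′ arm, 0.31 for the mir-1b 5′ arm, 0.32 for mir-1a and 0.58 for mir-206. The median over all 562 features was 0.37. The mir-1-1 arm thus lay at percentile 1.60 and mir-206 at percentile 87.9 of that spread.

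The features most like the mir-1b 5′ arm over the 8 hearts were sought among 134 non-member features with a mean of at least 100 CPM, by Pearson's r of log2 CPM. The highest was the 5′ arm of a rat entry, mir-3571, with r = 0.999 and Spearman's rho = 1.0 (no p is given, since the highest of 134 was chosen). Without the 2 hearts farthest from the median, r was 0.996. Per 100 reads of the mir-1b 5′ arm, mir-3571 held 0.258 to 0.267 reads in every heart, from 18451 to 29307 reads per library. None of its reads was an exact match. Its sequence was not compared with that of mir-1b. Whether its reads are variants of the mir-1b reads, rather than of a separate miRNA, was not tested. miR-23b-3p and miR-192-5p came next, with r of 0.886 and 0.883 and rho of 0.619 and 0.524; without the 2 farthest hearts r fell to 0.610 and 0.161. So the likeness of miR-192-5p rested on those 2 hearts. The mir-1-1 arm did not keep such a constant ratio: it held 7.09 to 10.4 reads per 100 of mir-1b. For mir-206 the 3 most alike were miR-532-5p (r = 0.784, rho = 0.762), the rat entry mir-3556a 5′ arm (0.763 and 0.810) and miR-674-3p (0.696 and 0.619); without the 2 farthest hearts r was 0.850, 0.856 and 0.398.

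**Figure D4:**
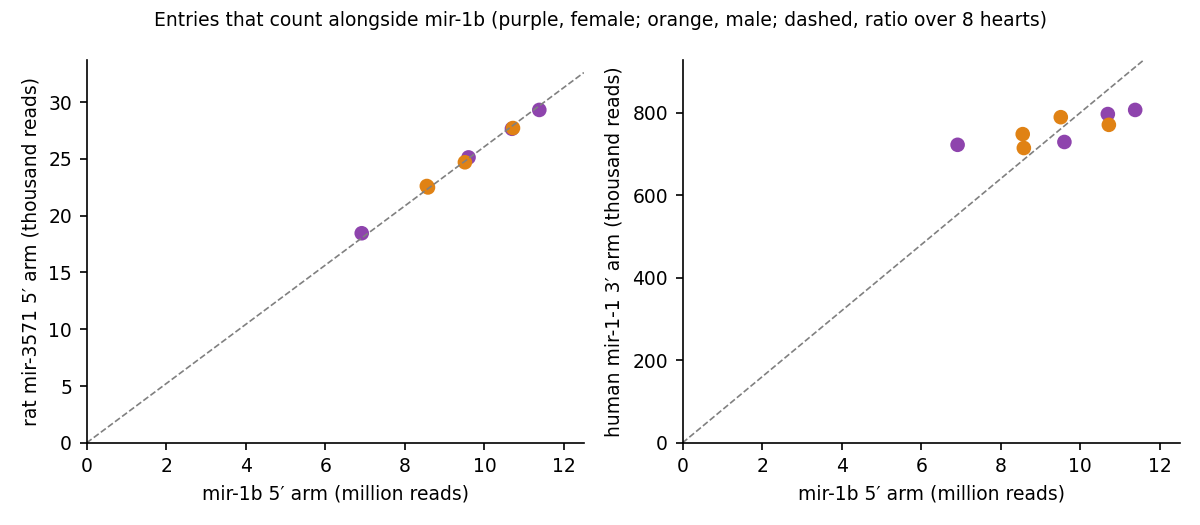
Reads of the rat mir-3571 5′ arm (left) and the human mir-1-1 3′ arm (right) against reads of the mir-1b 5′ arm, with 1 point per heart. On the left the points lie along the dashed line of constant ratio (0.258 to 0.267 per 100); on the right they lie nearly level, so the ratio ranges from 7.09 to 10.4 per 100.

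Reads on the hairpins outside both mature arms were described last. mir-1a-2 held 14832, 20998, 15972 and 30600 such reads in female replicates 1 to 4 and 19464, 18814, 19961 and 7014 in male replicates 1 to 4. Female replicate 4 was highest and male replicate 4 lowest. The opposite-strand entry mir-1b held the same number to within 36 reads in each library. mir-1a-1, on another chromosome, held 524 to 1093 reads fewer than mir-1a-2. These reads were 52.4% of all reads on mir-1a-2 over the 8 libraries and 0.194% of those on mir-1b. For mir-1a-2, 87.6% of them were counted as exact. A read outside the arms is not matched to a listed mature sequence, so this share cannot be set against that of mature reads.

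The counts give no read positions, so where on a hairpin such reads lay cannot be told. On mir-206, reads counted outside both mature arms outnumbered the mature reads in every heart. They numbered 89, 120, 87 and 218 in female replicates 1 to 4 and 135, 137, 148 and 50 in male replicates 1 to 4. Over the 8 libraries they were 67.1% of the reads on the hairpin, and 65.1% of them were counted as exact in the same sense as above. Here too female replicate 4 was highest and male replicate 4 lowest. Over all entries of the tables, male replicate 4 had the smallest share of reads outside the arms, 2.06%, against 2.44% to 3.08% in the other libraries; its part in the low counts was not tested. The human mir-1-2 entry, which had no mature reads, held 172 to 643 reads outside the arms.

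**Figure D5:**
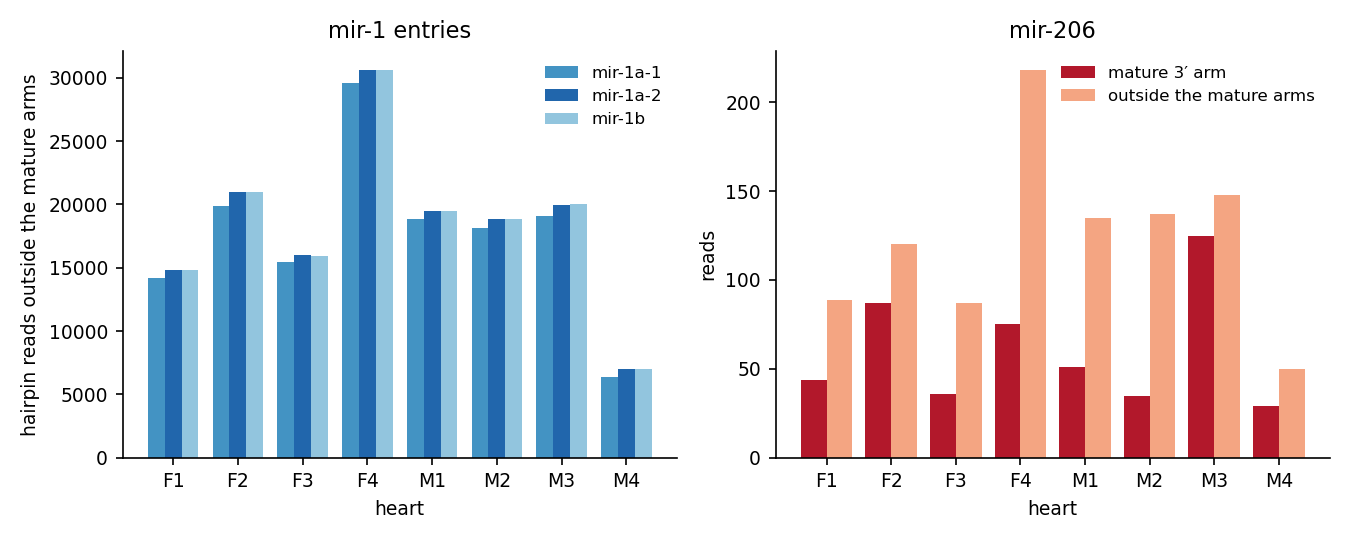
Reads outside the mature arms for the 3 mouse mir-1 entries (left) and mature 3′ and outside reads of mir-206 (right), as counts by heart. The 3 mir-1 entries, which may share these reads, rise and fall together, from 6351 in male replicate 4 to 30602 in female replicate 4. On mir-206 the outside reads exceed the mature reads in all 8 hearts.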

How the data were processed

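Small RNA reads of 8 hearts were analysed from the deposited tables, 1 per library. The deposited values are whole-number counts of reads per hairpin entry and arm, per the file headers; STAR and mm10 are named without a role in the submitters' processing notes, while the sources used here name no counting tool, trimming or filter. The columns of unique reads held 0 values from 1 to 9 and 753 from 10 to 19, as if each distinct read had needed 10 copies to be kept, so no upper limit is drawn from a count of 0.

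Groups came from the sample titles. Entries of the same name and arm were summed over species, and numbered copies were summed where under 50% of their mouse reads were unique, giving 680 features. edgeR 4.0.16 (R 4.3.3; glmQLFit, glmQLFTest, TMM, sex alone) tested the 562 that passed filterByExpr (minimum count 10, minimum total 15), with Benjamini-Hochberg adjustment over all 562. The standard error is the fold change over the root of F. DESeq2 1.42.0, limma-voom 3.58.1, other scalings, filters and units were alternatives. Shares were compared by exact permutation with scipy 1.17.1, adjusted over 5. A separate, shorter edgeR run was tried on simulated counts with a single dispersion for all features. No result here rests on it. Positions are from GENCODE vM21 (GRCm38, the assembly of mm10). No 2 libraries agreed within sampling noise (chi-square per degree of freedom at least 600.3).

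Named features are every member arm, the other muscle miRNAs and the 3 most alike of each of mir-1b and mir-206. Members and lists were chosen with earlier results of these data known.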

Additional observations from a re-analysis of the deposited data

Results flagged for a closer look

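Among 84 groups of 4 hearts (the values of the members and of the other muscle miRNAs, by sex), Dixon's test set 1 heart apart from its 3 fellows in 13. It does so by chance in about 1 of 20 groups, or 4.2 of these, and many of the values share reads.

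Female replicate 3 stood apart in 6 of them. Its share of human mir-1-1 in mir-1 counts was 9.43%, and it had 10.4 mir-1-1 reads per 100 of mir-1b against 7.09 to 7.59 in the other female hearts. Its 3′ arms of mir-1a-1 and mir-1a-2 each held 0.0401% of mature counts, against 0.0582% to 0.0595%. Its mir-1a 3′ level was 649 CPM, against 1178 to 1234 CPM. Its level of the rat entry miR-133c-5p was 10615 CPM, against 5708 to 6531 CPM.

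Male replicate 4 stood apart in reads outside the mature arms, with 6351 on mir-1a-1, 7014 on mir-1a-2, 7011 on mir-1b and 50 on mir-206. The other male hearts had at least 18151 on each mir-1 entry and 135 to 148 on mir-206. Reads outside the arms were 31.6% of its mir-1a-2 reads, against 54.5% to 57.1%.

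Male replicate 3 had 14.6 reads of mir-206 per 1000000 of mir-1b, against 3.05 to 4.76 in the other male hearts. Male replicate 1 had 933 CPM of mir-1a 3′, against 1020 to 1031 CPM.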

How the results depend on the processing

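Over 137 alternatives of 9 results (4 log2 fold changes, 5 shares), 0 had a p or adjusted p under 0.05 and 20 turned the sign of a difference. With library size alone the log2 fold change of mir-1b 5′ was 0.0094; that scaling moved the median of all features from 0.01 to 0.12. With the replicate block that of mir-206 3′ was 0.059 and edgeR called 4 features. Same-numbered libraries deviated together with r of 0.473, 0.338, 0.065 and -0.0028. Of the 8 libraries, 5 were most like the other sex's library of their own number. Whether the numbers mark pairs was not settled by these values, and the main fit did not use them as pairs. DESeq2 called 3 features. edgeR called 0, against 1 in the report, with RLE or upper quartile factors, library size alone, scaling without the members, at least 10 CPM in 4 libraries, deposited rows, mouse entries, exact counts or unique counts (17 to 40 at an unadjusted p under 0.05). Leaving out 1 heart gave 0 to 2 calls. It gave log2 fold changes of -0.29 to 0.098 for mir-1b, -0.31 to -0.029 for mir-1-1, -0.074 to 0.29 for mir-1a and -0.34 to 0.49 for mir-206. Differences ran from -1.14 to 2.27 points for all mir-1, -0.402 to 0.600 per 1000000 for mir-206, 0.0069 to 0.0261 points for mir-1a-2 in the pair, -0.655 to 0.289 points for mir-1-1 and -0.359 to 0.0789 points for exact matches. The cause of these turns was not tested. Exact counts gave no value for mir-206, and mir-206 failed the 10 CPM filter. The counts of mir-206, 29 to 125 per library, limit its precision.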
